A study of Mus musculus with 16 samples.

Results

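The CpGs described here held an intermediate methylation level in every library of a clonal mouse fibroblast experiment. They were chosen by their measured levels: both parental lines between 40% and 60% and all 14 clonal lines between 30% and 70%, ends included, where a level is the percentage of reads that called the CpG methylated. The table of the series lists 1203687 CpGs, each covered 10 times or more in every one of the 16 libraries. Of these, 24280 had both parents at 40-60%, and 1364 of these also passed in all 14 lines. That was 0.113% of the table and 5.62% of the CpGs with both parents in the window. The other 22916, with at least 1 line outside 30-70%, are called parental-only CpGs below and are the comparison set.

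The libraries came from mouse embryonic fibroblasts (MEFs) of 2 sibling C57BL/6J embryos at E13.5, MEF-1 male and MEF-2 female, immortalised by carrying the cells through crisis in culture. No group carried a transgene or a drug treatment. Each family had 1 parental line, sequenced once, and 7 clonal lines, each expanded from 1 cell isolated by flow cytometry, so that each clonal line is a single clone and the parental lines have no replicate. DNA methylation was measured by targeted capture bisulfite sequencing (tcBS-seq), which reads captured parts of the genome only; expression markers of fibroblasts were not measured in these libraries. The table covered 16 chromosomes; chromosomes 12, 18, 19, X and Y were not analysed here.

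In a clone grown from 1 diploid cell, a CpG that is copied faithfully can be unmethylated, methylated on both copies, or methylated on 1 copy, and only the last state gives an intermediate level that every clone shares. Genomic imprinting is the best-known source of such a state: at imprinted differentially methylated regions (DMRs) the methylation is set in the egg or the sperm and kept on that parental copy in all body cells. Maintenance there involves the zinc finger protein ZFP57, which binds a methylated TGCCGC hexamer and recruits KAP1, with DNMT1 copying the mark at replication. A level near 50% in a bulk library does not by itself show that 1 copy is methylated, and reads were not assigned to parental copies.

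When the 1364 CpGs were joined into runs of 3 or more with gaps of at most 200 bp, 17 runs held 101 of them (7.40%). Another 80 CpGs formed 40 pairs and 1183 (86.7%) stood alone. Of the 17 runs, 13 lay in or within 5000 bp of a gene on a list of known imprinted DMR loci, and these held 88 CpGs. They are called imprinted runs below by position alone, and whether each lies in the DMR itself was not tested. The other 4 runs held 13 CpGs. By contrast only 3 of the 40 pairs and 16 of the 1183 single CpGs lay at listed loci. CpGs at these loci made up 87.1% of those in runs, 1.74% of those outside runs, 1.34% of parental-only CpGs and 0.249% of the table. The number of runs depends on the windows and the depth: at listed loci lay 8 of 12 runs with at least 20 reads in all libraries, 27 of 50 with a clonal window of 20-80%, and 1 of 1 with 40-60%. These shares are descriptions, since the members were chosen by level with earlier results of these data known.

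The sequences below (GRCm38, plus strand, 5′ to 3′) show what runs of different size and density are made of, with the CpGs that passed every window in capitals; they are 300 bp around the middle of a run, from RefSeq. The first 5 are imprinted runs. Their loci are known as methylated on the maternal copy (Mest, Peg13, Slc38a4 and Kcnq1ot1) or the paternal copy (H19). Which copy was methylated in these runs was not measured. The last is the run outside the list with the most members, shown for contrast. In the Mest window every CpG passed. In the Peg13, Slc38a4, H19 and Gm26848 windows CpGs that did not pass lay between CpGs that did. In the Kcnq1ot1 window the 4 that passed were consecutive, with the others on either side.
Mest chr6:30738431-30738730: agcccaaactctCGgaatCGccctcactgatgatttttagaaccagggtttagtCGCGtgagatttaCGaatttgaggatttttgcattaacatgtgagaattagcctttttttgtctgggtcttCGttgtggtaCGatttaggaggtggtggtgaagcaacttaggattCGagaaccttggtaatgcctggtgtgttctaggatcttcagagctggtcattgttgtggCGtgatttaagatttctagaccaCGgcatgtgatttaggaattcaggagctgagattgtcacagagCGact
Peg13 chr15:72809188-72809487: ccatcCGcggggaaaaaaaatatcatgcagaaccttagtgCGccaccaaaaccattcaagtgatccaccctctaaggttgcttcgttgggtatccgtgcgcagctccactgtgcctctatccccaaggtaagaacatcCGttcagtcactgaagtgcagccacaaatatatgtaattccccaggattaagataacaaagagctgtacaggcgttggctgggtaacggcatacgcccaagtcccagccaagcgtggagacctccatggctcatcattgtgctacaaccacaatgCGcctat
Slc38a4 chr15:97055495-97055794: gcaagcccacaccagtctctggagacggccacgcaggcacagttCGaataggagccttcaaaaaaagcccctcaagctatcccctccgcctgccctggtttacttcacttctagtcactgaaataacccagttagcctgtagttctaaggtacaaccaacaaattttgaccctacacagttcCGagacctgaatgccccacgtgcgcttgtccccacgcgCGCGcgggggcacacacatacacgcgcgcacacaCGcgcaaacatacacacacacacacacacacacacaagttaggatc
H19 upstream chr7:142580305-142580604: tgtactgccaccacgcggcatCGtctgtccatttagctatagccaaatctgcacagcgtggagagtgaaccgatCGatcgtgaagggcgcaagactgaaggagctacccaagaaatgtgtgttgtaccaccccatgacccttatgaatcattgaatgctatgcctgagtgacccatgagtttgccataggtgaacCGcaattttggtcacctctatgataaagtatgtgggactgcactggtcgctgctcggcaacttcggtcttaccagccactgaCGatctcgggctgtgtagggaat
Kcnq1ot1 chr7:143295477-143295776: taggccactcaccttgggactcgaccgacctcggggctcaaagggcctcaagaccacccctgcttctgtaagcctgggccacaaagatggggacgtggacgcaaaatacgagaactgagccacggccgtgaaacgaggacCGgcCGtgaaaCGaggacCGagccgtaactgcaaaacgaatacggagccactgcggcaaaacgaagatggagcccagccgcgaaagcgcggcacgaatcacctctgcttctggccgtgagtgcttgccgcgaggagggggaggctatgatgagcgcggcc
Gm26848 chr17:6492945-6493244: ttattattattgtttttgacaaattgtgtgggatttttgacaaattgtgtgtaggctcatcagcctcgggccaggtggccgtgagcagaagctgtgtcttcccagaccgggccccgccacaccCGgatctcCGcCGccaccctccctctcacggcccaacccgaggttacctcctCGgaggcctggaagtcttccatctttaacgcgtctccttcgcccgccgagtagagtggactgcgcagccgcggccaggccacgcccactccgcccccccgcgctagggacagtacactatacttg
The letters TGCCGC, searched on both strands, occurred in 7 of the 17 runs (41.2%), each widened to at least 300 bp around its middle. Longer runs were searched whole, at up to 949 bp, so this share is not like for like with the shares of 300-bp windows below. All 7 were among the 13 imprinted runs, and none of the other 4 held it. The hexamer was in 10.8% of 300-bp windows centred on all CpGs of the table, 6.72% of those centred on parental-only CpGs and 7.92% of those centred on the 1364. At listed imprinted loci, however, it was in 39.1% of windows around members and in 39.0% of those around parental-only CpGs. The Kcnq1ot1 window shown above holds 3 copies and the H19 window 1. The Mest and Peg13 windows shown hold 0, and their whole runs of 459 and 836 bp hold 3 and 1, so that these 2 runs count only through their length.

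The run with the most members lay on chromosome 11 at 22971999-22972947, where the imprinted gene Zrsr1 lies within the Commd1 gene. Zrsr1 encodes a splicing-related RNA-binding protein and is expressed from the paternal copy; 69 of the 70 CpGs of the span lie in its exons, in an untranslated part. Of the 70 CpGs 22 passed every window. The level of the run, from reads summed over all CpGs of the span, was 42.8% in the MEF-1 parental line (95% Wilson interval 41.3-44.3%) and 43.9% in the MEF-2 parental line (42.3-45.6%). The MEF-1 lines ran from 39.5% to 53.4%, with a mean of 47.7% ± 5.03 (SD, n = 7), and the MEF-2 lines from 43.9% to 49.8%, with a mean of 47.0% ± 2.35 (SD, n = 7). Lines of both families overlapped, and MEF-1 line 4 was the lowest of the 14. All 70 CpGs of the span had a mean over the 14 lines between 30% and 70%, so that the 48 others were intermediate too but fell outside a window in a parent or in at least 1 line.

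Mest, a paternally expressed gene for a hydrolase-like protein, held the run with the next most members. On chromosome 6 at 30738352-30738810, 20 of 24 CpGs passed (83.3%). Its level was 45.8% in the MEF-1 and 45.7% in the MEF-2 parental line. MEF-1 lines 1 to 7 stood at 48.5%, 44.4%, 43.0%, 48.4%, 52.1%, 53.0% and 54.2%, and MEF-2 lines 1 to 7 at 46.9%, 54.9%, 52.5%, 54.0%, 49.0%, 43.8% and 46.5%. The families overlapped across nearly their whole range, with means of 49.1% ± 4.29 and 49.7% ± 4.20 (SD, n = 7 each). The windows had bounded the members in every line beforehand. Overlap of families and means near 50%, in this and the other runs, are therefore descriptions. A pair of members lay upstream, at -1276 and -1239 bp from the middle of the run, so 22 of the 28 Mest CpGs with both parents at 40-60% were members (78.6%).

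Peg13, a paternally expressed non-coding RNA within an intron of Trappc9, held 11 members among 36 CpGs on chromosome 15 at 72808920-72809755. Its parental levels were 48.9% and 45.2%. The MEF-1 lines ran from 49.0% to 65.7% (mean 55.0% ± 5.33, SD, n = 7) and the MEF-2 lines from 43.5% to 51.7% (mean 47.1% ± 3.44, SD, n = 7). MEF-1 line 5 was the highest. In 3 CpGs of the span the MEF-1 parental line was at 94.8%, 89.3% and 92.2%, while the MEF-2 parental line was at 39.7%, 41.4% and 48.6%; the other 33 had a mean over all 14 lines within 30-70%. The flanks differed. Of the 22 CpGs before the run and within 2000 bp of its middle, 20 had a mean above 70% and 2 at 30-70%. Of the 56 after it, 50 were at 30-70% and 6 above 70%.

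**Figure D1:**
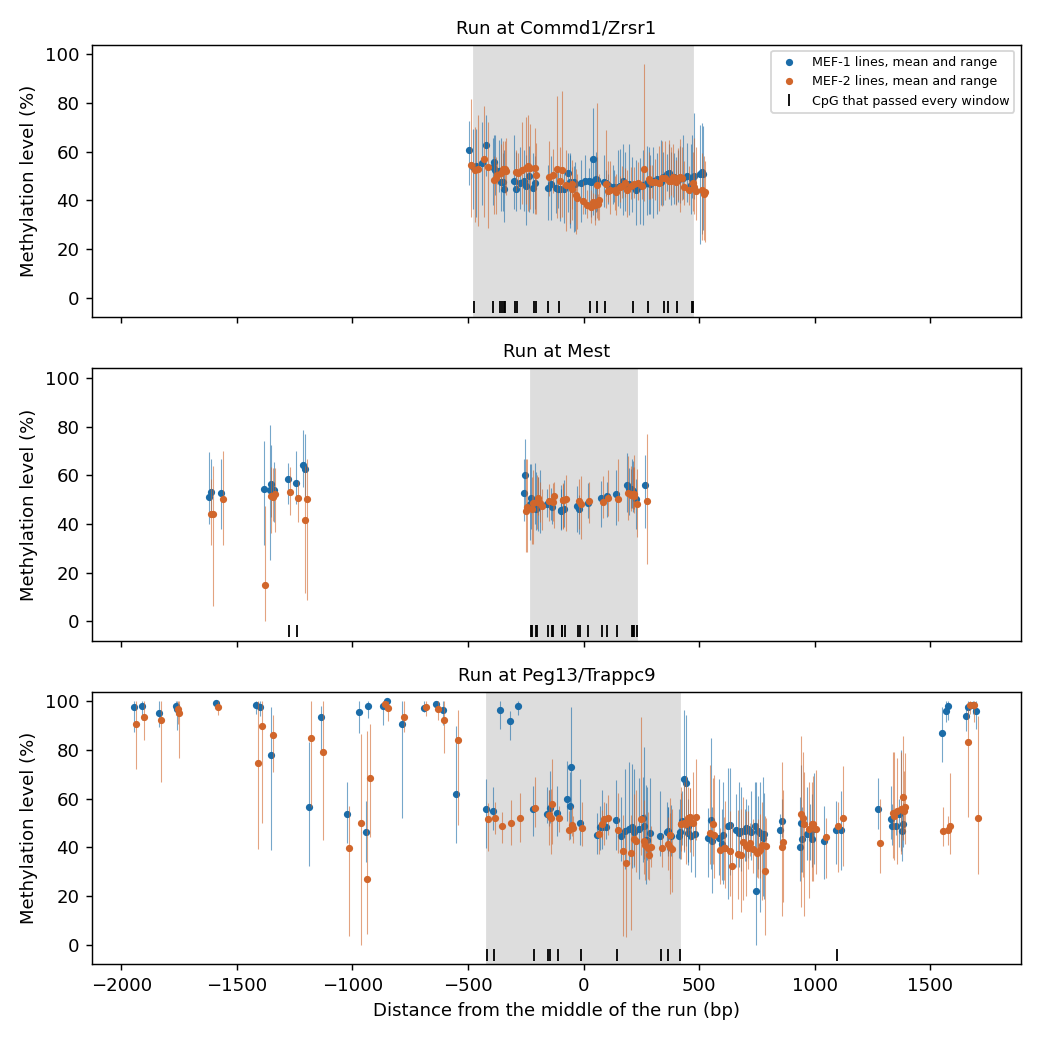
Mean methylation level (%) per CpG against distance from the middle of the run (bp) at the 3 runs with the most members; points are means of the 7 lines of a family, bars run from the lowest to the highest line, the shaded part is the run and ticks mark CpGs that passed every window. Within the runs the family means go from 37.2% to 62.7% at Commd1/Zrsr1 and from 45.1% to 56.1% at Mest. In the Peg13 run 3 CpGs have a mean above 90% over the MEF-1 lines, but not over the MEF-2 lines.

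The H19 run lay 2311 bp from the H19 start site on chromosome 7 at 142580326-142580583, upstream of this maternally expressed non-coding RNA. The control region of H19 and Igf2, known as methylated on the paternal copy, lies upstream of H19. The run held 4 members among 11 CpGs. The parental level was 47.6% for MEF-1 and 42.5% for MEF-2. Its 7 MEF-1 lines ran from 33.0% (line 3) to 51.7% (line 5), and the MEF-2 lines from 38.5% (line 4) to 61.4% (line 7). The families overlapped, at means of 43.5% ± 6.07 and 47.9% ± 7.91 (SD, n = 7 each). Reads of this run were fewer than the rest of the library would give in MEF-1 lines 1 and 7, at 0.687 and 0.642 of the median over the 14 lines, and any part of this in the levels was not tested.

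Kcnq1ot1, the antisense RNA that silences neighbouring genes on the paternal copy, held a run of 4 members, all 4 CpGs of its span, in an exon of Kcnq1ot1 and an intron of Kcnq1, 923 bp from the Kcnq1ot1 start (chromosome 7 at 143295617-143295636). It was read less deeply, with a median of 24.5 reads per CpG, and its lines were further apart. The parents were at 46.0% and 57.1%. The MEF-1 lines spread from 38.9% to 65.8% and the MEF-2 lines from 33.0% to 52.8%, with means of 53.8% ± 11.3 and 41.0% ± 8.51 (SD, n = 7 each), and 4 of the 7 MEF-1 lines were above every MEF-2 line. Slc38a4, a paternally expressed amino acid transporter, had a similar spread: 5 members among 14 CpGs in an intron (chromosome 15 at 97055539-97055750), parents at 42.4% and 46.1%, MEF-1 lines from 38.8% to 68.6% and MEF-2 lines from 37.3% to 63.9%. In this run 35.7% of the CpGs were in repeats, and MEF-2 line 5, at 61.5%, had 0.534 of the median relative coverage; its part in the level was not tested.

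The 7 remaining imprinted runs held 3 or 4 members each. Peg10, a retrotransposon-derived gene of the placenta, had 4 of 4 CpGs in an intron on chromosome 6 at 4748074-4748113, with lines from 36.6% to 62.4%. These 4 CpGs lie in copies of a short tandem repeat. Repeated units also occur in the 300-bp windows at Zrsr1, Kcnq1ot1 and Airn/Igf2r, and such copies were not searched for in every run. Grb10, which encodes an adaptor that restrains growth signalling, had 3 of 3 in an intron (chromosome 11 at 11973543-11973768, lines from 39.4% to 55.9%). The Grb10 run lay 3013 bp from the nearest start site and was the sparsest run at a listed locus, with a mean of 1.67 other CpGs within 100 bp. It was counted by its place in the gene, and whether it belongs to the imprint was not tested.

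Plagl1, a zinc finger transcription factor, had 3 of 8 CpGs in a run near a start site (lines from 37.6% to 60.7%). Peg3/Usp29, on chromosome 7, had 3 of 8 in a Usp29 untranslated exon (35.8% to 69.6%). Inpp5f, a phosphoinositide phosphatase gene with an imprinted variant, had 3 of 8 in an intron and the lowest line of any imprinted run (30.3% in MEF-2 line 3; the highest was 59.6% in MEF-2 line 1), at a median of only 20 reads per CpG. Gnas, the gene for the stimulatory G protein alpha subunit, had 3 of 6 in coding sequence (35.8% to 63.4%), and Airn/Igf2r, the antisense RNA that silences the growth factor receptor gene Igf2r, had 3 of 3 in an intron (38.3% to 61.5%). The lowest and highest lines at Gnas had 0.736 and 0.673 of the median relative coverage, and those at Peg3/Usp29 0.863 and 0.689. At Plagl1 they had 0.970 and 1.38, at Inpp5f 1.01 and 1.05, and at Airn/Igf2r 1.40 and 1.07. Any part of coverage in these levels was not tested.

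The 4 other runs were in or near genes not on the list and were read more deeply, at medians of 68 to 81.5 reads per CpG against 20 to 56.5 in the imprinted runs. The one with the most members was in an exon of the lincRNA Gm26848 on chromosome 17 at 6493068-6493121, with 4 of 6 CpGs; it was lower in MEF-1 (parent 38.7%, lines 28.5% to 44.4%) than in MEF-2 (parent 48.8%, lines 37.6% to 59.9%), with overlap of the lines. An intergenic run on chromosome 4 at 118547893-118547982, 3893 bp from the start of Tmem125, stood higher than the rest; its 3 members lie in copies of a tandem repeat, like those of the Peg10 run. There the parents were at 63.1% and 62.0%, the MEF-1 lines at 66.3% to 72.9% and the MEF-2 lines at 55.6% to 64.9%, so that the lines of the 2 families did not overlap; 3 of its 5 CpGs were members and the run level includes the other 2. MEF-1 line 1 had 1.64 of the median relative coverage there, at a level of 69.0%, and MEF-2 line 4 stood at 58.3%. The last 2 runs, each of 3 adjacent CpGs, were in introns of Ctr9, a subunit of the Paf1 transcription elongation complex (chromosome 7 at 111029812-111029840, lines from 34.0% to 56.8%), and of Ccdc40, a gene of motile cilia (chromosome 11 at 119258896-119258905, lines from 41.1% to 57.7%). They lay 389 bp and 27 bp from the nearest start site. The intronic runs at Inpp5f, Slc38a4, Plagl1, Peg10 and Airn/Igf2r lay 274, 312, 347, 687 and 1237 bp from one.

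Across the 17 runs the SD of the level over the 14 lines was larger than the SD that counting reads would give, by 3.78 against 0.888 points at Zrsr1, 4.09 against 1.48 at Mest and 7.14 against 2.70 at H19. The gap was smallest at Grb10 (4.89 against 3.89) and Airn/Igf2r (7.30 against 5.44). Neighbouring CpGs share reads and PCR copies were not marked by molecular identifiers, so that these counting errors, and all intervals given here, are too narrow and cover counting error only.

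**Figure D2:**
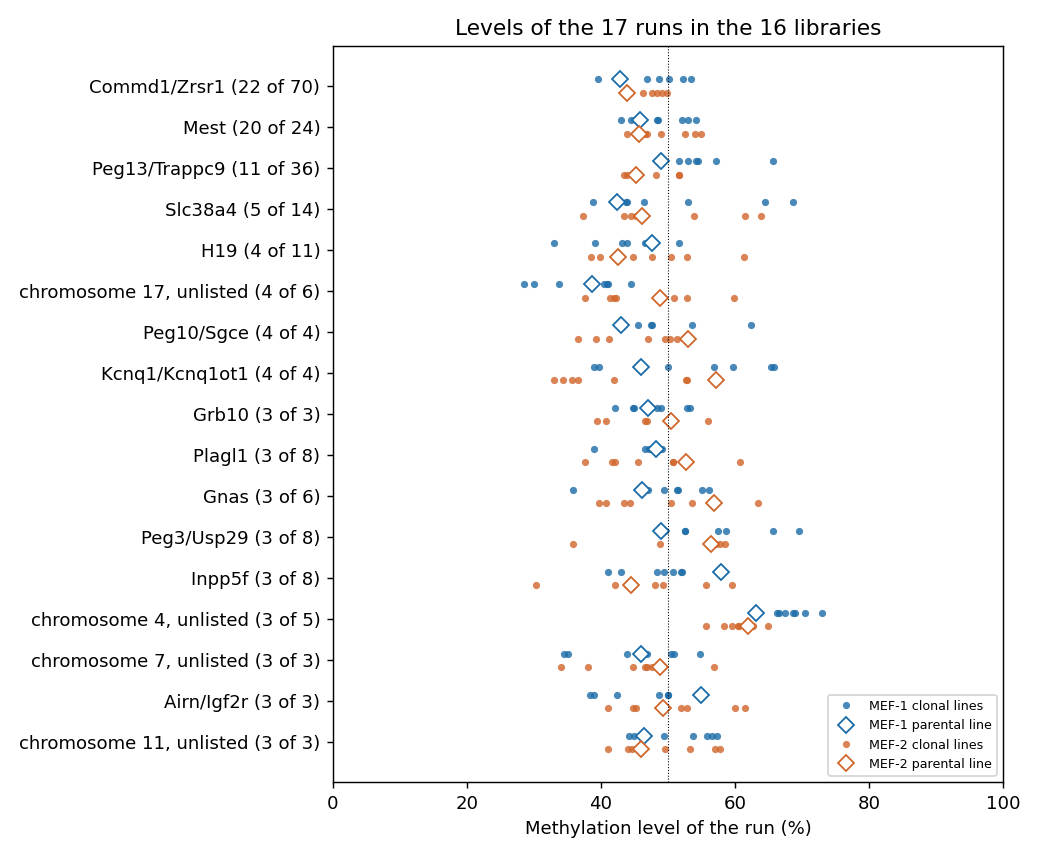
Methylation level (%) of each run in the 16 libraries, read counts summed over all table CpGs of the run; filled points are clonal lines, open diamonds parental lines, blue MEF-1 and orange MEF-2, with the number of members of all CpGs in the run in brackets. Most runs sit around 50%, where the windows hold their members, with overlapping families, and the unlisted run on chromosome 4 sits at 55.6-72.9%.

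Of the 22 listed loci, all of which had CpGs in the table, 13 held a run and 14 held a member. At H13/Mcts2, which had a pair and 2 single members and no run, 95 of 222 CpGs had a mean over the lines at 30-70%. The 8 loci without a member were Gpr1, Zdbf2, Blcap/Nnat, Herc3/Nap1l5, Snrpn/Snurf, Igf2, Cdh15 and Rasgrf1. They had between 0 and 5 CpGs with both parents at 40-60%. Their levels differed: Blcap/Nnat had 10 of 101 CpGs with a line mean at 30-70%, 28 below 10% and 34 above 90%, while Snrpn/Snurf had 15 of only 24 tabled CpGs at 30-70%.

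The share of the both-parents CpGs that were members differed widely among loci with many such CpGs. It was 78.6% at Mest, 73.3% at Zrsr1 (22 of 30), 46.2% at Trappc9/Peg13 (12 of 26) and 6.19% at Nespas/Gnas (6 of 97). If each of these CpGs had a true level of 50%, reads at these depths would put 70% of those at Mest, 74.7% at Zrsr1, 74.5% at Trappc9/Peg13 and 56.8% at Nespas/Gnas inside the windows of all 14 lines. Over all 24280 CpGs the same figure was 68.1%, against the 5.62% that passed. The Gnas locus is the largest group of both-parents CpGs on the list, and MEF-2 line 3 alone took 15 CpGs out of it that passed in the other 15 libraries, 12 of them above 70%.

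Since all windows are centred on 50%, a mean level of the members near 50% in every library was largely set by the choice. This mean was 50.1% in the MEF-1 and 49.9% in the MEF-2 parental line and 48.7% to 50.8% in the 14 lines. The median member spanned 28.4 points from its lowest to its highest line, and only 47 members stayed at 40-60% in all 14 lines. At the edge of the window, 974 members had a line in the outer 5 points (30-35% or 65-70%) and 1242 parental-only CpGs missed it by up to 5 points. On chromosome 1, for example, a member at 36691171 had 14 of 20 reads methylated in MEF-1 line 3 (70%), and a parental-only CpG at 33743158 had 68 of 97 in MEF-2 line 3 (70.1%). Of the parental-only CpGs, 2574 failed in 1 line and 4380 failed in 7 or more.

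The share of CpGs that passed rose with depth. Members had a median of 49.0 reads per library against 34.0 for parental-only CpGs and 32 for the table. With a mean of 10 to 20 reads, 18 of 1909 both-parents CpGs were members (0.943%), and the share rose to 3.28% at 20 to 40 reads, 7.88% at 40 to 60 and 12.2% at 60 or more. At the very top of coverage, 139 members (10.2%) had a mean over 96.0 reads, which is 3 times the table median, against 2.96% of parental-only CpGs and 2.15% of all. None of the 101 members in runs was among them. By the median of a pair in place of the mean of a CpG, 7 of the 40 pairs were over 96.0 reads. Of these pairs, 4 lay on chromosome 8 between 19 and 21 Mb, at medians of 101 to 450 reads. The others were 1 in Snhg14 (455), 1 in Drg1/Sfi1 (420) and 1 between genes on chromosome 2 (116). Whether reads of repeated copies meet at these sites was not tested.

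To measure a level in libraries that the choice had not used, CpGs were chosen on 1 family alone (its parent at 40-60% and its 7 lines at 30-70%) and read in the lines of the other. The MEF-1 windows called 24808 CpGs, which is 2.06% of the table, and the MEF-2 windows called 13938, which is 1.16%. Of the CpGs chosen on MEF-1, 5.50% also passed the MEF-2 windows, and of those chosen on MEF-2, 9.79% passed the MEF-1 windows. At listed imprinted loci the shares were 30.8% (110 of 357) and 39.6% (110 of 278), against 5.13% and 9.18% elsewhere. Among runs, 36 of 808 runs chosen on MEF-1 alone (4.46%) and 24 of 376 chosen on MEF-2 alone (6.38%) were at listed loci, against 13 of 17 (76.5%) after both.

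Line by line, 69.5% to 85.2% of the imprinted CpGs chosen on MEF-1 were at 30-70% in the MEF-2 lines (mean 81.7%), compared with 34.6% to 37.0% of the CpGs chosen on MEF-1 elsewhere (mean 36.3%). The difference was 45.4 ± 5.33 points (SD, n = 7), higher in 7 of 7 lines; a two-sided exact sign-flip test gave p = 0.0156, the smallest 7 lines allow, and an adjusted p of 0.0156 over the 5 tests added after the data were seen. The lowest line was MEF-2 line 3. In the reverse direction the imprinted CpGs stood at 79.5% to 83.5% in the MEF-1 lines and the others at 34.3% to 36.8%, a difference of 45.8 ± 1.59 points (SD, n = 7; 7 of 7 lines; exact p = 0.0156, adjusted p = 0.0156). Imprinted CpGs chosen on MEF-1 had a median of 37.0 reads and the others 41.0. In a direction all lines were read at the same CpGs, so these p-values measure the spread between clones and not between loci. Loci differed widely in the share of members, as given above.

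The CpGs at listed imprinted loci that were not chosen on a family, with its parent at 40-60% but a line outside 30-70%, were also often at 30-70% in the other family, at a mean of 64.6% in the MEF-2 lines (59.5% to 69.1%, 514 CpGs) and 69.4% in the MEF-1 lines (64.9% to 72.5%, 498 CpGs). Over all CpGs, chosen and not chosen ones were compared in the same way. CpGs chosen on MEF-1 were at 30-70% in 36.9% of MEF-2 line readings on average, and CpGs with the MEF-1 parent at 40-60% but a MEF-1 line outside 30-70% in 34.9%, a difference of 2.08 ± 0.326 points (SD, n = 7; higher in 7 of 7 lines; exact sign-flip p = 0.0156, adjusted p = 0.0437 over 5 planned tests). From MEF-2 to MEF-1 the same comparison gave 36.7% and 36.9%, a difference of -0.276 ± 0.310 points (SD, n = 7; higher in 2 of 7 lines; exact p = 0.0625, adjusted p = 0.104). Both sets stood above the 14.9% to 15.8% of all table CpGs at 30-70% in a line. Leaving out CpGs of the imprinted lists, the differences were 1.63 and -1.05 points (exact p = 0.0156 each). With a clonal window of 40-60% they were 4.92 and 3.72 points (exact p = 0.0156 each), and with 20-80% they were 0.288 (exact p = 0.0938) and -1.92 points (exact p = 0.0156). The direction from MEF-2 to MEF-1 thus turned with the window, and the call from MEF-1 to MEF-2 was lost with the wider one. Passing all windows of the other family was more frequent among chosen CpGs in both directions, at 5.50% against 2.56% of those not chosen on MEF-1 and 9.79% against 5.15% of those not chosen on MEF-2. The chosen CpGs were read more deeply, at medians of 41.0 against 32 reads on MEF-1 and 40 against 33 on MEF-2, and the part of depth in these shares was not tested.

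**Figure D3:**
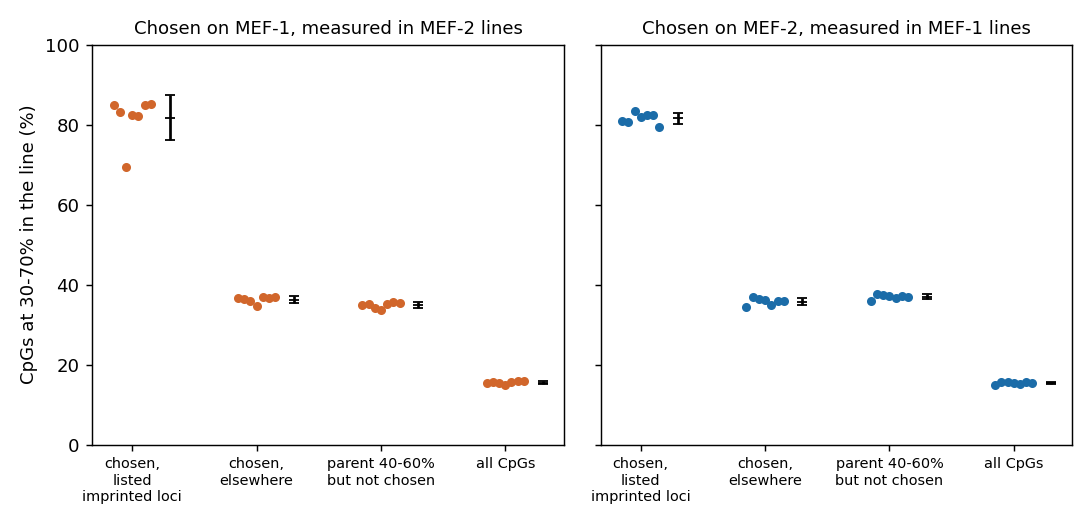
Share of CpGs (%) at 30-70% in each line of the family that was not used to choose them, for CpGs chosen at listed imprinted loci, chosen elsewhere, with the parent at 40-60% but not chosen, and all CpGs of the table; points are the 7 lines and black bars the mean ± SD. Imprinted CpGs are at 69.5-85.2% and the chosen CpGs elsewhere at 34.3-37.0%, next to those not chosen.

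Each line was next read at CpGs that passed every window in the other 15 libraries. Between 1476 and 1654 CpGs qualified, and 82.5% to 92.4% were at 30-70% in the line left out, whereas reads drawn from a level of 50% at the same depths would give 97.6% to 99.1%. For every line, the CpGs at 30-70% are the same 1364 members, so that a share differs only through the CpGs lost. The shares are therefore not independent readings, and each family is 1 embryo. The MEF-1 lines had a mean share of 90.2% ± 1.81 and the MEF-2 lines 86.3% ± 3.11 (SD, n = 7 each), 3.86 points apart (p = 0.0175 in an exact permutation test, two-sided, and 0.0437 after adjustment). The p-value covers the spread between these dependent shares only. With a clonal window of 40-60% the difference turned to -1.61 points and the call was lost (exact permutation p = 0.673), and with 20-80% it was 5.83 points. The lowest were MEF-2 line 4 (82.5%, Wilson interval 80.6-84.2%) and MEF-2 line 3 (83.0%, 81.1-84.7%). At listed imprinted loci 92.4% to 97.3% passed in 13 lines and 80.9% in MEF-2 line 3.

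**Figure D4:**
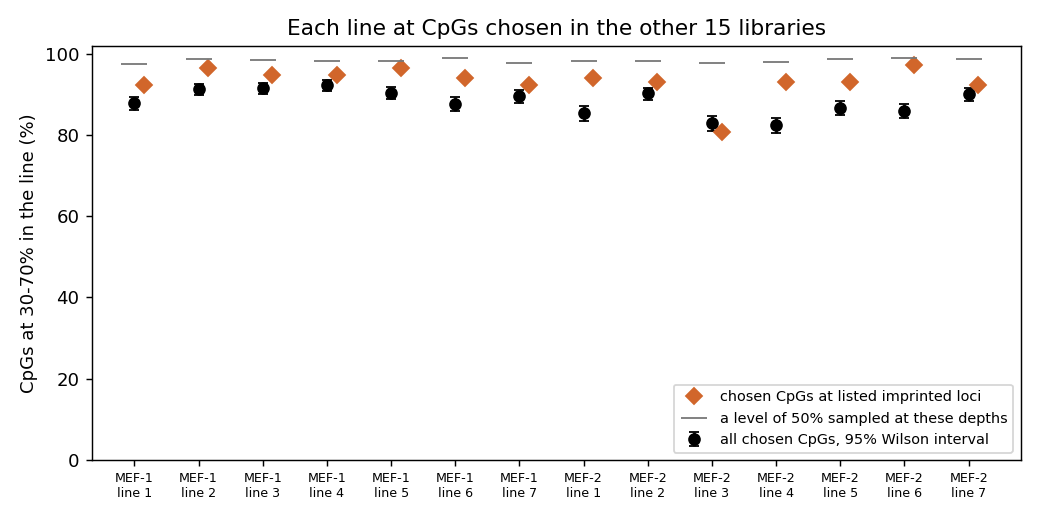
Share of CpGs (%) at 30-70% in each clonal line, at CpGs chosen in the other 15 libraries; black points are all such CpGs with 95% Wilson intervals, orange diamonds those at listed imprinted loci and grey dashes the share that a level of 50% would give at these depths. MEF-2 line 3 has the lowest imprinted share, 80.9%.

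Every line lost CpGs on several chromosomes, and some chromosomes took more than the rest. Of the 290 CpGs that MEF-2 line 4 lost, 103 were on chromosome 4, and of the 280 that MEF-2 line 3 lost, 58 were on chromosome 2 and 25 on chromosome 14. On chromosome 4, 138 CpGs passed in the 15 libraries other than MEF-2 line 4 and only 35 (25.4%) were at 30-70% in that line, 42 below and 61 above. Nearly all were beyond 20 Mb, where 133 passed without the line and 31 with it. As a result chromosome 4 had members at 1.91% of its both-parents CpGs, against 4.53% to 7.57% on the other chromosomes, and 7.51% without MEF-2 line 4. Reads of this part of chromosome 4 were at 0.973 of the median over lines in MEF-2 line 4, next to 0.981 to 1.02 in the other lines.

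The next 5 lowest combinations of a line and a chromosome were MEF-2 line 3 on chromosomes 2 (66.9%) and 14 (67.1%), MEF-1 line 6 on 16 (69.6%), MEF-1 line 1 on 17 (71.4%) and MEF-1 line 7 on 5 (73.9%). Each of these lines had the most extreme read share for that chromosome among the 14 lines, at 0.793, 0.779, 0.799, 0.842 and 1.30 of the median. The next 4 did not: MEF-2 lines 1, 5 and 6 had 75.2%, 78.6% and 79.3% on chromosome 5, with read shares of 0.971, 0.968 and 0.972, inside the range of the other lines, and MEF-2 line 3 on chromosome 10, also at 79.3%, had 1.04 against 0.973 to 1.14 in the others. On chromosome 2, MEF-2 line 3 left the window at 15 CpGs of Nespas/Gnas and 6 of H13/Mcts2, which are 21 of its 26 losses at listed loci; in the 6 at H13/Mcts2 its mean was 76.9% and that of the other lines 50.6%. Without this line 22 runs formed, 17 at listed loci, among them 2 runs at H13/Mcts2 and 3 at Nespas/Gnas. The part of read share in these levels was not tested.

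**Figure D5:**
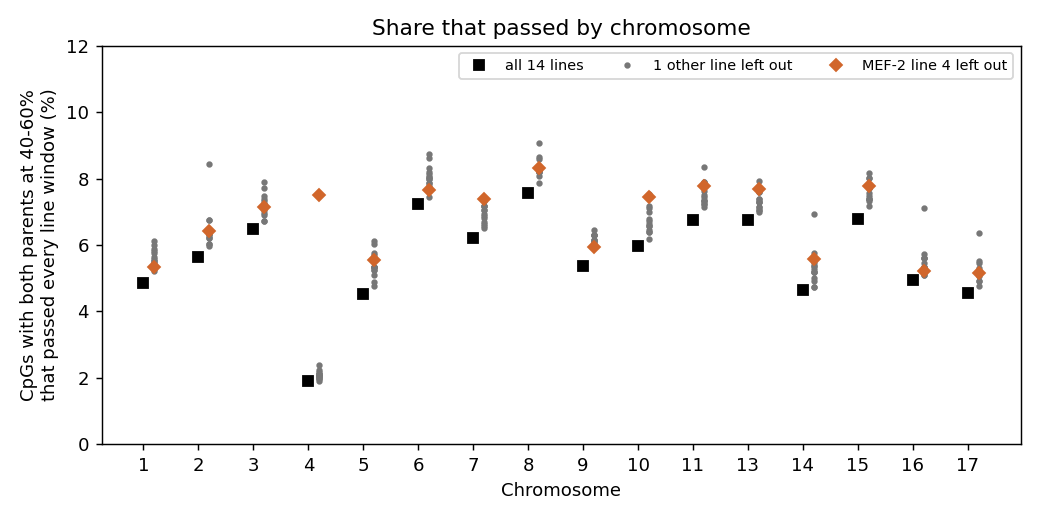
Members as a share (%) of CpGs with both parents at 40-60%, by chromosome; black squares use all 14 lines, grey points leave out 1 line and orange diamonds leave out MEF-2 line 4. Chromosome 4 is at 1.91% with all lines and at 7.51% without MEF-2 line 4.

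CpG density was higher in runs on average. Counting the other CpGs of the reference within 100 bp, up to 30, members in runs had a mean of 10.3, members outside runs 3.62, parental-only CpGs 4.08 and all table CpGs 7.00. The runs at Grb10 (1.67) and Ctr9 (3.00) were sparser than the mean of members outside runs. Since a run needs close CpGs, its own density is fixed in part by the rule. Over all members the mean was 4.12, and over the 16 chromosomes the members differed from parental-only CpGs by -0.0183 ± 0.697 CpGs (SD, n = 16; higher on 6 of 16; two-sided exact sign-flip test, p = 0.918, adjusted p = 0.918). Outside the imprinted lists the difference was -0.336 CpGs (exact sign-flip p = 0.0114 over 16 chromosomes, not adjusted). Density fell with depth, and members were read more deeply than parental-only CpGs. Members and parental-only CpGs were also set side by side within bins of depth, leaving out the imprinted DMR list only. Their means were 4.27 and 5.05 at 10 to 20 reads (11 members) and 4.33 and 4.28 at 20 to 40. At 40 to 60 they were 3.26 and 3.45, and at 60 or more 3.29 and 3.14, so that neither set was denser in all 4 bins. With the listed loci kept, members were denser in all 4, at 7.17 and 5.25, 5.10 and 4.40, 3.87 and 3.52, and 3.38 and 3.14. These differences within bins were not tested.

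Most members were in genes, as most of the table is. A protein-coding transcript or the 1000 bp before its start held 63.6% of members, 57.9% of parental-only CpGs and 70.9% of the table. The chromosome means differed by 4.14 ± 9.26 points (SD, n = 16; higher on 11 of 16; exact sign-flip p = 0.0943, adjusted p = 0.118). Promoters alone, the 1000 bp before a start, were examined after the data were seen. They held 22.3% of members, 11.4% of parental-only CpGs and 22.3% of the table. The difference between members and parental-only CpGs was 9.90 ± 5.21 points (SD, n = 16) and positive on 16 of 16 chromosomes (exact sign-flip p = 3.05e-05, the smallest 16 chromosomes allow, adjusted p = 7.62e-05). It was 10.1 ± 5.39 points (SD) outside the imprinted DMR list.

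Members lay in promoters more often than parental-only CpGs in each of 4 bins of depth. The shares were 33.3% (6 of 18) and 12.4% at a mean of 10 to 20 reads, 19.5% and 11.2% at 20 to 40, 23.6% and 11.6% at 40 to 60, and 23% and 11.1% at 60 or more. All CpGs of the table in these bins were at 27.1%, 23.9%, 18.6% and 15.7%, so that members were below the table at 20 to 40 reads and above it in the other bins. Outside the imprinted DMR list members were at 18.2% (2 of 11), 19.9%, 21.5% and 23.2%, so that they were below the table at 10 to 20 reads too. With a mean of 40 or more reads, the difference over chromosomes was 10.4 ± 8.11 points (SD, n = 16; positive on 13 of 16; exact sign-flip p = 4.88e-04, adjusted p = 8.13e-04).

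The nearest neighbours of imprinted and other members differed in level. Of members at listed loci with a tabled CpG within 100 bp, 96.3% had a nearest neighbour with a mean over the lines at 30-70%. Elsewhere the share was 45.2%, close to the 42.8% of parental-only CpGs, and in the table it was 15.3%. Part of this is fixed by the windows, since 47.7% of the neighbours at listed loci were members themselves, against 3.35% elsewhere. Among neighbours that were not members the shares were 93.0% at listed loci (57 neighbours), 43.4% elsewhere (1098) and 42.4% for parental-only CpGs. The nearest neighbours of members elsewhere were divided between low and high levels, with 28.6% below 30% and 26.1% above 70%. Members outside runs and imprinted lists lay in 575 protein-coding genes or between genes.

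Other gene lists held members at shares to be read against the 0.113% of the whole table. The list of further imprinted genes, without a DMR of their own, held 26 members and 1 run near 5 of 46 genes, and 22 of the 26 were also at DMR loci; it held 1.91% of members and 0.204% of the table. The Hox genes, which pattern the body axis, held 6 members of 4116 CpGs in the table and the list of genes expressed in the germ line, many silenced by promoter methylation in body cells, held 2 of 1392. Both were close to the share of the table, and neither held a run.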

How the data were processed

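Methylated and unmethylated read counts per CpG of 16 tcBS-seq libraries were deposited by the authors. The labels name Trim Galore 0.6.0, Bismark, R 3.6.1 and mm10; the methods give paired reads with a mapping quality of at least 10 and both strands combined. The series table keeps CpGs with 10 or more reads in every library. Its coverage and percent columns, and the authors' fidelity fraction and neighbour similarity score over the clonal lines and their score of CpG number within 100 bp, were not used; levels were computed from its counts, and library tables gave the same counts at the members in 16 of 16 libraries. Calls per library in the table ranged from 38485592 to 57348851. Of its CpGs, 113 were at no reference CpG, and none of these was a member.

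The members and lists were chosen with earlier results of these data known. The named runs were, for each listed imprinted locus, the run with the most members, and up to 15 other runs, of which 4 existed. Of the windows that rule gives, the sequence at Zrsr1 was not shown because it lies in an untranslated region, and the runs at Kcnq1ot1 and Gm26848 were added for contrast. Genes are from GENCODE M21; sequences from RefSeq GRCm38. Lines (7 per family) or chromosomes (with at least 10 CpGs in both sets) were the replicates of exact sign-flip and permutation tests in Python 3.11.15 with numpy 2.4.6, with Benjamini-Hochberg adjustment within 5 planned and within 5 added tests; the scripts were tested on simulated counts. Lines of a family share 1 embryo, so p-values measure the spread between clones of that embryo. Alternatives were the coverage minimum, the clonal window, an upper limit on coverage, gaps, list margins and leaving out lines.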

Additional observations from a re-analysis of the deposited data

Results flagged for a closer look

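Of 40 groups of 7 lines, 3 had a line far from the rest by Dixon's test, which by chance flags about 1 in 20 groups. In 34 of the 40 the values were levels of the 17 runs, which the 30-70% windows had bounded beforehand, so that their flags are descriptions and are not to be read against that rate. The other 6 were shares of CpGs at 30-70% in a line left out or in the other family. Shares in a line left out count the same members in every line, so that their flags are descriptions too. The run at Plagl1 stood at 38.9% in MEF-1 line 4, with the next line at 46.5%. The run at Peg3/Usp29 stood at 35.8% in MEF-2 line 4, with the next at 48.8%. At imprinted CpGs chosen in the other 15 libraries, MEF-2 line 3 had 80.9% at 30-70%, with the next line at 92.4%; its read share was 0.793 of the median on chromosome 2, which holds 21 of its 26 losses, and the part of this was not tested.

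The gain from being chosen on the other family differed between the 2 directions, by 2.36 points (two-sided exact permutation test of 7 against 7 lines, p = 5.83e-04, the smallest these lines allow). All lines of a direction were read at the same CpGs, chosen on 1 embryo. The p-value therefore measures the spread between clones, and the direction itself has no replicate. The gain was 1.66 to 2.55 points in the MEF-2 lines and -0.784 to 0.126 in the MEF-1 lines. The 2 directions chose different CpGs, 24808 and 13938, and with a clonal window of 40-60% both gains were positive, at 4.92 and 3.72 points; with 20-80% they were 0.288 and -1.92.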

How the results depend on the processing

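The member count was 47 with a clonal window of 40-60% and 3885 with 20-80%. With 40-60% there was 1 run of 3 members, at a listed locus, and the imprinted share was 10.6%; with 20-80% there were 50 runs, 27 at listed loci, with 315 members. With at least 20 reads the imprinted runs numbered 8 and the imprinted share was 6.61%.

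The MEF-1 to MEF-2 difference lost its call with 20-80% (0.288 points, exact sign-flip p = 0.0938) and was 4.92 points with 40-60% (exact p = 0.0156). The MEF-2 to MEF-1 difference gained one at 20 reads (-0.565), with 20-80% (-1.92), with limited coverage (-0.571), outside the imprinted lists (-1.05, p = 0.0156 each by the exact sign-flip test) and without chromosome 4 (-0.378, p = 0.0469), and turned to 3.72 points with 40-60% (p = 0.0156, exact). The difference between families in lines left out turned to -1.61 points with 40-60% (exact permutation p = 0.673) and was 5.83 points with 20-80% (exact p = 0.00175). Its value under a replicate block, pairing lines by number, was 3.86 points (exact p = 0.0312); the numbers are names only and pair nothing. The imprinted difference read in MEF-1 lines was 45.2 points without MEF-1 lines 1, 4 and 5 (exact p = 0.125, the smallest 4 lines allow). The density difference turned to 0.154 at 20 reads, 0.281 with 20-80%, 0.0300 with limited coverage and 0.658 within 250 bp, and was -0.336 outside the lists (exact p = 0.0114). The genic difference was 5.23 points with limited coverage (exact p = 0.0370). With 40-60% no chromosome comparison could be made.

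Leaving out each line in turn gave 1476 to 1654 members, 17 to 22 runs, 13 to 17 imprinted runs, 105 to 128 members in runs, an imprinted share of 7.12% to 8.27%, and differences of 1.83 to 2.17 and -0.760 to -0.192 points between families, 42.9 to 47.4 and 44.7 to 46.4 points for imprinted CpGs, 3.34 to 5.32 points between lines left out, -0.0969 to 0.0435 CpGs in density (turned without MEF-2 line 3, 0.0435, and without MEF-2 line 5, 0.0352), 2.98 to 4.70 points in genic and 9.07 to 10.1 points in promoter share. MEF-2 to MEF-1 gained a call without MEF-2 lines 1, 2, 3, 4, 6 or 7, and the genic share without MEF-1 line 6 or MEF-2 line 1. The promoter difference kept its direction and call in all alternatives that could be run; those on chromosome 4, promoters and imprinted against other CpGs were chosen after seeing the data. The causes were not tested. At the depths of the table, reads drawn from a level of 50% in all libraries would pass every window at 43.2% of CpGs.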

Other observations

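In the parental-only set, the imprinted loci held 308 CpGs, with a mean of 11.1 other CpGs within 100 bp, next to 3.98 elsewhere. The 247 CpGs at listed loci that passed the MEF-1 windows only were 1.05% of 23444 such CpGs, and the 168 that passed the MEF-2 windows only were 1.34% of 12574.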
